A study of Mus musculus with 24 samples.

Results

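The splicing factors described here are the SR proteins, the hnRNPs and their close partners that bind pre-mRNA and set which exons are kept. Members were taken by symbol: the Srsf genes, the Hnrnp genes apart from a single A/B-type gene that is not reported here, Tra2a, Tra2b, Ptbp1, Ptbp2, Srrm1 and Srrm2. This gave 35 of the 10506 transcripts listed in all 8 deposited count tables, with 1 transcript a gene. The SR and SR-related members number 14 (Srsf1, Srsf2, Srsf3, Srsf4, Srsf5, Srsf6, Srsf7, Srsf9, Srsf10, Srsf11, Tra2a, Tra2b, Srrm1 and Srrm2). The hnRNP and PTB members number 21 (Hnrnpa0, Hnrnpa2b1, Hnrnpa3, Hnrnpab, Hnrnpc, Hnrnpd, Hnrnpdl, Hnrnpf, Hnrnph1, Hnrnph2, Hnrnph3, Hnrnpk, Hnrnpl, Hnrnpll, Hnrnpm, Hnrnpr, Hnrnpu, Hnrnpul1, Hnrnpul2, Ptbp1 and Ptbp2). All 35 passed the filter on low counts in every comparison.

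The cells were Neuro-2a (N2a), an established mouse neuroblastoma line. Ctrl cells (labelled WT) had received the empty Cas9 and puromycin resistance vector, and KO cells had received that vector with guide RNAs to exons 1, 2 and 4 of Eif4e3, which encodes a cap-binding protein of the eIF4E family. KO cells are described as a puromycin-selected population, not as a clone. Cells of both genotypes were given Torin1, which blocks the mTOR kinase, at 250 nM, or its solvent DMSO for 2 h, and mRNA was read by RNA-seq (12 libraries) and ribosome-protected fragments by ribo-seq (11 libraries). Each of the 4 conditions had 3 replicates, each a separate passage of the cells. For ribo-seq of ctrl DMSO only 2 (replicates 1 and 3) were used here. The paper discarded replicate 2 of that condition as an outlier.

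SR proteins carry RNA recognition motifs and a tail rich in arginine and serine, and most of them promote exon inclusion from enhancer sequences in exons. Their tails are phosphorylated by the SRPK and CLK kinases, which controls their entry into the nucleus and their release from nuclear speckles. The hnRNPs coat nascent transcripts and often act against SR proteins at nearby sites, and many of them also shuttle to the cytoplasm, where they affect mRNA stability and translation. Genes of both families commonly regulate their own level through poison exons that send the transcript to nonsense-mediated decay. Under mTOR inhibition, mRNAs that begin with a C and a run of pyrimidines at the cap (TOP mRNAs, chiefly those of ribosomal proteins and elongation factors) are the best known to lose ribosomes.

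Depth differed more between ribo-seq libraries, at 669010 to 5284910 counts, than between RNA-seq libraries, at 17047800 to 28910900. The shallowest was ctrl DMSO replicate 3 of ribo-seq. Its lowest count for any of the 35 members was still 55. Eif4e3 mRNA was at 12.0 to 18.2 CPM (counts scaled to a common library total) in ctrl libraries and at 2.88 to 5.04 in KO libraries, with footprints at 11.6 to 22.1 and 2.29 to 6.61 CPM, so its level was lower in every KO library but not 0. All 10 neuroblastoma markers looked at were listed, for example Tubb3 at 945 to 1432 CPM, while of 11 markers of blood, endothelial, epithelial, mesenchymal and glial cells 3 were listed, Cd68, Pecam1 and Krt8, all at 4.58 CPM or less (markers by library size alone). All other CPM here are scaled by TMM, a factor for each library that sets aside the few transcripts that differ most. They are relative to the library, so that less RNA in each cell and fewer cells cannot be told apart. A change in total footprints does not show in them either, and the paper reports fewer heavy polysomes after Torin1 in both genotypes. A rise or fall of footprints, or of their ratio to mRNA, is therefore one relative to other transcripts.

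The share of raw mRNA counts, summed over the 35 members, was much the same in all conditions. That of raw footprint counts was higher in Torin1. These shares are not scaled by TMM, whose factors in ribo-seq were 0.905 to 0.933 in DMSO and 1.06 to 1.08 in Torin1 libraries. With library size alone the median of all transcripts in footprints also rose in Torin1, as given below. The higher share is therefore not wholly particular to the members. The members took 0.991 to 1.19% of the counts of each RNA-seq library. In ribo-seq their share was 1.76, 1.84 and 1.69% in the KO DMSO libraries and 2.51, 2.46 and 2.47% in the KO Torin1 libraries, with no overlap. In ctrl cells it was 1.64 and 2.25% in DMSO and 2.23, 2.48 and 2.52% in Torin1. The higher ctrl DMSO value is that of the shallow replicate 3, which lay within the Torin1 range. That library was above replicate 1 for 28 of the 35 members, by a median of 0.29 on the log2 scale. For 24 members its value was nearer to the ctrl Torin1 mean than to the KO DMSO mean, against 11 members for replicate 1. These counts cover the members alone, and the same counts over all transcripts are not given here. Results that rest on ctrl DMSO footprints are therefore given below with and without the shallow library.

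**Figure D1:**
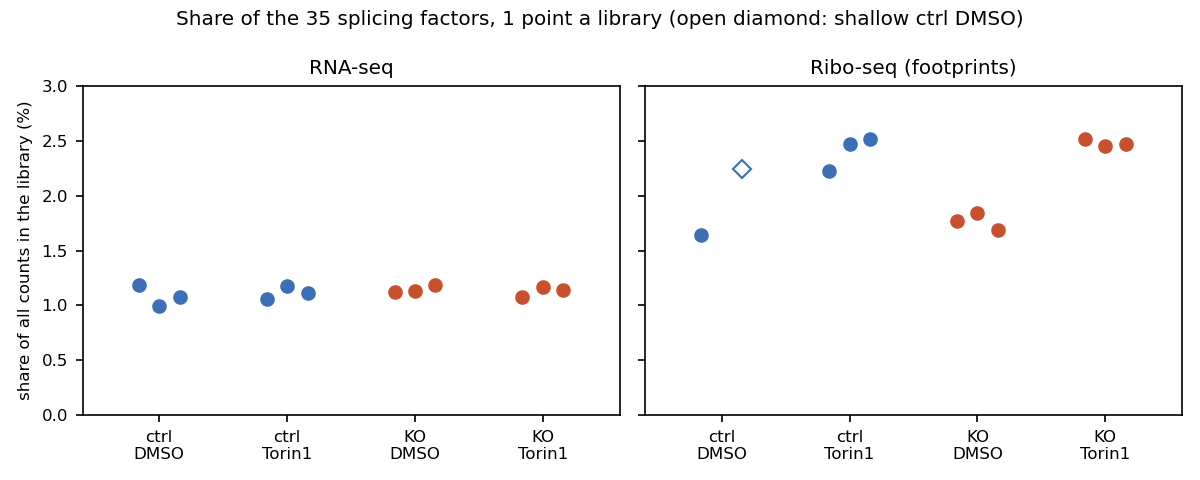
Share of all raw counts of a library (%, without TMM) taken by the 35 splicing factors, in RNA-seq (left) and ribo-seq (right). There is 1 point a library, with the 4 conditions along the x axis. Shares of mRNA counts lie between 0.991 and 1.19% throughout, and shares of footprints between 1.64 and 2.25% in DMSO and between 2.23 and 2.52% in Torin1; the open diamond is the shallow ctrl DMSO library.

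In ctrl cells given DMSO, Hnrnpa2b1 and Hnrnpab were the most abundant members by mRNA, while Hnrnpa3 was the lowest. Levels between genes are given as mean CPM per kb of coding sequence (CDS) ± SD, over 3 RNA-seq and 2 ribo-seq libraries of ctrl DMSO. By mRNA the highest were Hnrnpa2b1 at 1257 ± 203, which acts in splicing and in RNA trafficking, Hnrnpab at 1173 ± 135, Hnrnpk at 606 ± 68.8, which binds poly(C), and Hnrnpu at 539 ± 48.5, a nuclear scaffold protein. Hnrnpa2b1 and Hnrnpab did not differ beyond their spread, nor did Hnrnpk and Hnrnpu. At the low end were Hnrnpul1 at 65.0 ± 3.69, Ptbp2 at 44.6 ± 11, Hnrnph2 at 31.5 ± 3.87 and Hnrnpa3 at 22.0 ± 7.27. Ptbp2 is the neural paralog of Ptbp1, the polypyrimidine tract binding protein that represses neuronal exons.

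Footprints per kb gave a different order. Hnrnpa2b1 was again the highest at 3248 ± 1487, followed by Hnrnpa3 at 2657 ± 997, Hnrnpab at 1599 ± 288 and Srsf3, the smallest SR protein, at 995 ± 137. With 2 libraries the spread of Hnrnpa2b1 and of Hnrnpa3 covered the distance between them. The lowest were Srrm1 at 70.9 ± 9.0, Ptbp2 at 53.6 ± 3.30, Hnrnpul1 at 43.9 ± 5.60 and Srrm2, a large scaffold protein of nuclear speckles, at 33.7 ± 1.51.

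Translation efficiency (TE), the footprint CPM divided by the mRNA CPM of a transcript, was above the middle of all transcripts for most members. As a ratio of mean CPM in ctrl DMSO, the median TE was 1.62 over the members and 0.937 over the 10506 transcripts, and 31 of the 35 members lay above the latter. The medians were 1.80 and 0.919 in ctrl Torin1, 1.56 and 0.945 in KO DMSO, and 1.97 and 0.924 in KO Torin1. Within paired libraries of ctrl DMSO, TE was highest for Hnrnpa3 at 124 ± 84.1 (mean ± SD, n = 2), Hnrnpf, which binds G tracts, at 6.07 ± 1.54, and Hnrnpa0 at 4.64 ± 1.18. It was lowest for Ptbp1 at 0.697 ± 0.207, Hnrnpul1 at 0.659 ± 0.046 and Srrm2 at 0.506 ± 0.105.

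Many of these genes have near-identical copies elsewhere in the mouse genome, and a read from such a stretch cannot be placed on the genome with certainty. The share of 28-base words of the CDS that also occur outside the gene in GRCm38 was 97.9% for Hnrnpf, 95.7% for Hnrnpa3, 94.8% for Srsf3, 87.7% for Hnrnpk, 86.7% for Tra2b, 86.2% for Srsf10, 74.2% for Hnrnph2, 73.7% for Srsf5 and 61.2% for Hnrnpc. These 9 members had over 50% elsewhere, 17 had under 5%, and 11 had none. Against the canonical transcripts of other genes no member shared over 5% of its words, and 30 members shared none. The median TE in ctrl DMSO was 3.09 for the 9 members with over 50% elsewhere and 1.44 for the other 26, of which 22 lay above the median of all transcripts. Hnrnpa3 shows the gap between the assays most plainly. Its mRNA was at 29.0, 16.5 and 17.5 CPM in ctrl DMSO, the lowest of all members, while its footprints were at 1862 and 3208 CPM. Footprints had been kept at 25 to 35 bases. The part that copies have in these TE levels was not tested.

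**Figure D2:**
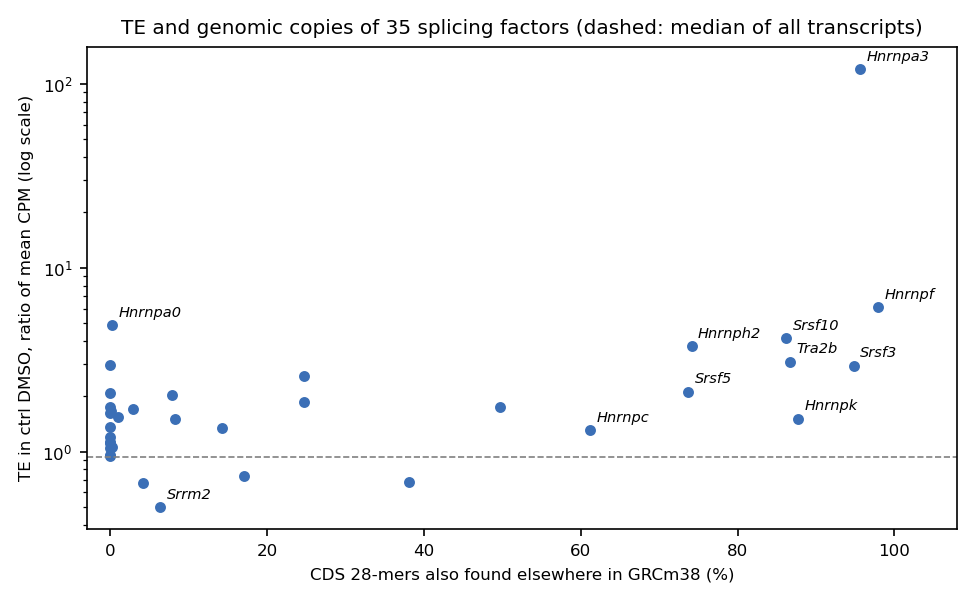
TE in ctrl DMSO (ratio of mean CPM, log scale) against the share of 28-base words of the CDS that also occur elsewhere in GRCm38 (%), with 1 point for each of the 35 splicing factors and the median of all transcripts, 0.937, as a dashed line. Hnrnpa3 stands far above the others, and the 9 members to the right of 50% have a median of 3.09 against 1.44 for the other 26.

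The cap-proximal bases of the members whose footprints or TE moved furthest in KO cells are shown because TOP mRNAs, which mTOR inhibitors are known to repress, are read from the cap. Each line gives the first 25 bases of the GENCODE M21 transcript, 5′ to 3′ on the coding strand, with its position in GRCm38 (mm10), and capitals mark the unbroken run of C and T from a first base C. The first 4 had lower footprints or TE in Torin1, and the last 4 had higher.
Hnrnpa0 (chr13:58128532-58128556, minus strand): CTCTTTgtgtggtgtcccgataggg
Ptbp1 (chr10:79854427-79854451, plus strand): ggccgtttccgtcttccgtcttgac
Hnrnpdl (chr5:100039198-100039222, minus strand): Cggtcccgcacggctgactctcccc
Srrm1 (chr4:135353220-135353244, minus strand): ggagcggggcgggtgtagcggcgcg
Hnrnpab (chr11:51606823-51606847, minus strand): aggcggtggcaccgcgcgggacgga
Hnrnpa2b1 (chr6:51469821-51469845, minus strand): agtagcagcggcgccggtcccgtgt
Srsf5 (chr12:80945504-80945528, plus strand): attttgtgcaacgtccgagctgcta
Hnrnpd (chr5:99978914-99978938, minus strand): CCattttaggtggtccgcggcggcg

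A TOP-type start, a C followed by at least 4 pyrimidines, was found in 1 of the 35 members, Hnrnpa0, against 2.245% of 10467 listed transcripts with an annotated start. The annotated starts are an uncertain reading of the cap. Only 8 of 81 transcripts of ribosomal proteins, or 9.877%, had such a start in GENCODE. In RefSeq (GRCm38.p6) 33 members had a start, 14 of them at the same base as in GENCODE, and 2 were of TOP type, Hnrnpa0 and Srsf5, against 2.272% of listed transcripts and 19.672% of 61 transcripts of ribosomal proteins. The RefSeq start of Srsf5 lies 5 bases upstream of that above, and that of Ptbp1 5 bases downstream, where capitals mark the run of C and T from the start.
Srsf5 in RefSeq (chr12:80945499-80945523, plus strand): CTTCCattttgtgcaacgtccgagc
Ptbp1 in RefSeq (chr10:79854432-79854456, plus strand): TTTCCgtcttccgtcttgactgacg

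The annotated 5′ leader had a median of 188 bases over the members and 172 over all listed transcripts, and the CDS 1245 and 1380 bases.

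In KO cells Torin1 changed the footprints of 16 of the 35 splicing factors, 13 upward and 3 downward, while none of their mRNAs passed the test. That is 45.7% of the members, against 40.6% of the 10822 transcripts tested, so the number of calls was near the background. By direction, 13 of 35 members were higher where 18.5% of all transcripts were, and 3 of 35 were lower where 22.1% were. The median log2 fold change was 0.19 over the members and 0.02 over all transcripts. The test was edgeR's quasi-likelihood test on counts with Benjamini-Hochberg adjustment over all transcripts, called under an adjusted p of 0.05. SR members had 4 calls, all upward, and hnRNP and PTB members had 9 upward and 3 downward. With scaling by library size alone, without TMM, the median of all transcripts moved up to 0.26 and the calls became 28 upward and 1 downward, Ptbp1. The share of all transcripts called with that scaling is not given here. None of the 16 called members changed sign under that scaling, but of the members named below without a call Srsf2 went from -0.07 to 0.18 and Srrm1 from -0.23 to 0.02. Of the 9 members with over 50% of their CDS words elsewhere, 7 were called upward and none downward; of the 17 with under 5%, 4 were called upward and 1 downward.

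**Figure D3:**
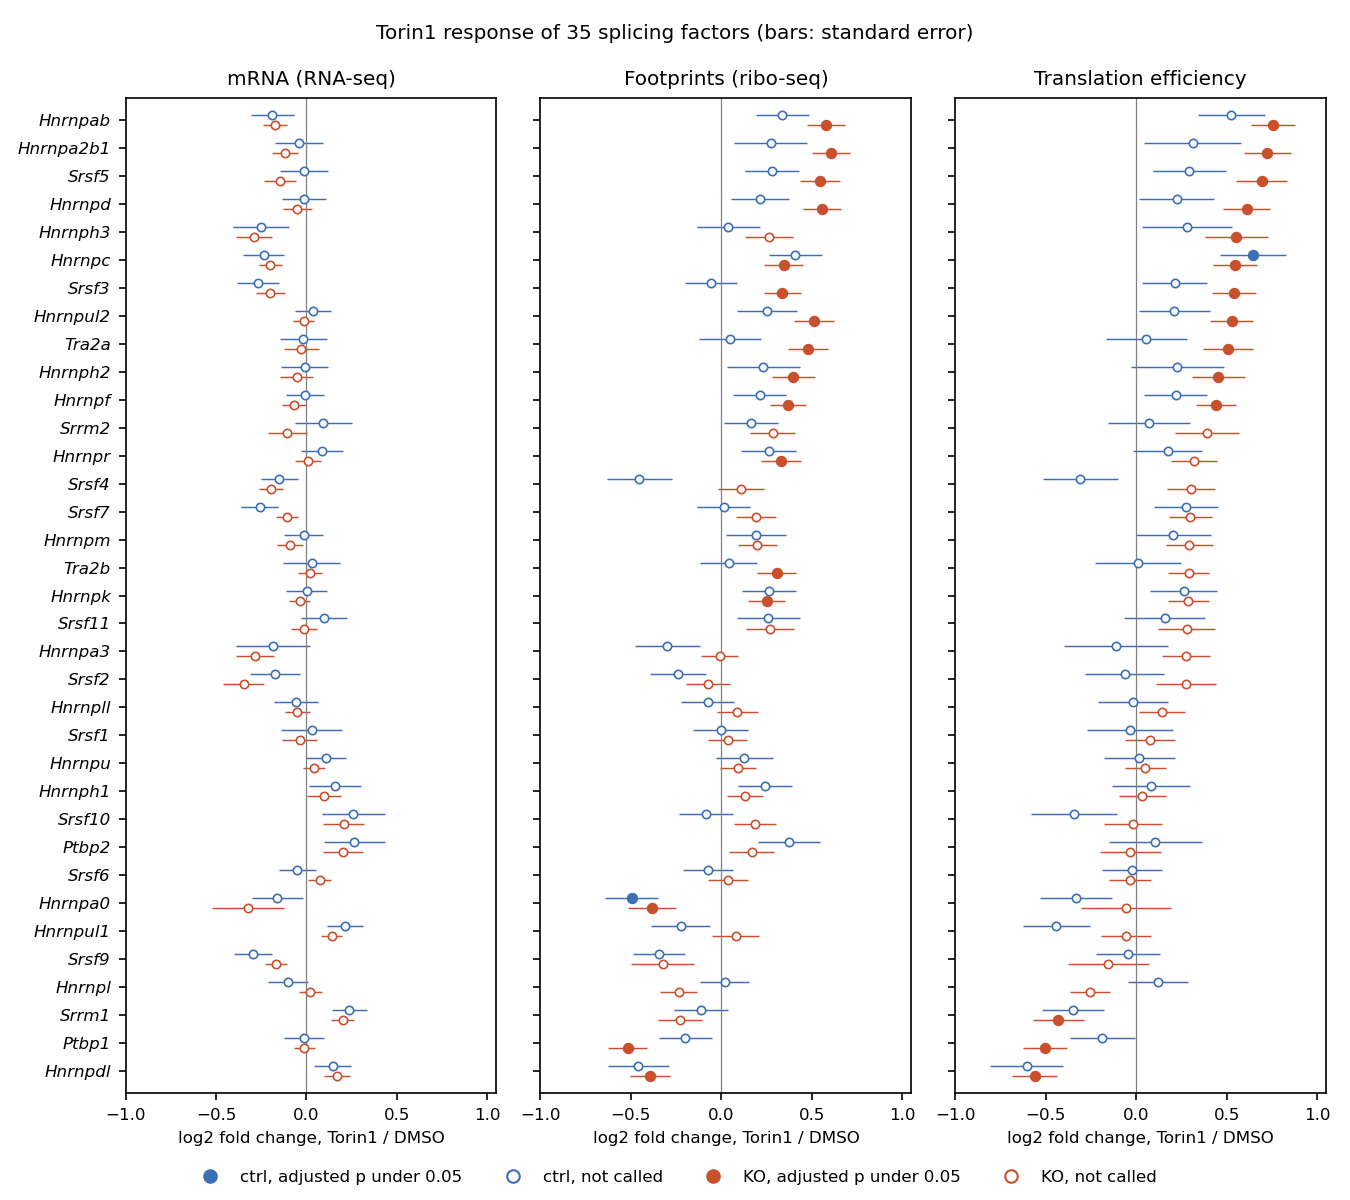
Log2 fold change of Torin1 over DMSO with its standard error for the 35 splicing factors, in mRNA, footprints and TE, with ctrl cells and KO cells in separate colours and filled points for an adjusted p under 0.05. No mRNA point is filled; in footprints 16 KO points and 1 ctrl point are filled, and in TE 14 KO points and 1 ctrl point.

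Among the SR members the largest rise was that of Srsf5. Its footprints were at 294, 317 and 249 CPM in the KO DMSO libraries and at 413, 414 and 449.9 in the KO Torin1 libraries, so that all Torin1 libraries were higher. The log2 fold change was 0.55 ± 0.11 (SE), adjusted p = 0.000203. Footprints of Tra2a, an SR-like protein that binds purine-rich enhancers, rose from 163, 162 and 147 to 231, 215 and 221 CPM, without overlap, by 0.48 ± 0.11 (adjusted p = 0.000921). Its paralog Tra2b went from 290.4, 267 and 275 to 354, 348 and 341 CPM, by 0.31 ± 0.11 (adjusted p = 0.0216). The Tra2b groups were also apart, but its call was lost when KO DMSO replicate 2, KO Torin1 replicate 1 or KO Torin1 replicate 2 was left out, at 0.28 to 0.31 and an adjusted p of 0.0605 to 0.0847. Srsf3, which couples splicing to mRNA export, rose from 403, 427 and 389 to 522, 528 and 512 CPM, by 0.34 ± 0.10 (adjusted p = 0.00948). Of these 4 called SR members, Srsf3, Tra2b and Srsf5 are among those with over 50% of their CDS words elsewhere in the genome, and Tra2a had none elsewhere.

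The remaining SR members did not pass the test in footprints. Srsf7 was at 357, 338 and 297 CPM in KO DMSO and 379.7, 383 and 386 in KO Torin1, at 0.19 ± 0.11 (adjusted p = 0.159). Its groups did not overlap, but the test was not passed. Srsf1, the archetype of the family, was at 339, 308 and 305 and 318, 346 and 325 CPM with a log2 fold change of 0.04 ± 0.11, and Srsf2, a speckle SR protein, at 156, 176 and 178 and 138, 179 and 176 CPM with -0.07 ± 0.12. Both sets of libraries overlapped. For Srrm2 the values were 245, 325 and 350.2 and 314, 410.2 and 413 CPM, at 0.28 ± 0.13 (adjusted p = 0.0692). Replicate 1 was the lowest Srrm2 library in both conditions, and Srrm2 was called without KO Torin1 replicate 1 (0.40) or KO DMSO replicate 3 (0.38) and with the replicate number as a block (0.29). With library size alone Srsf7 (0.44), Srsf1 (0.29) and Srrm2 (0.54) were called higher.

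Among the hnRNPs the largest rises were those of Hnrnpa2b1, Hnrnpab and Hnrnpd, while other members of their types fell, as given below, or were not called. Hnrnpa2b1 footprints were at 2478, 2871 and 2255 CPM in KO DMSO and 4140.2, 3819.8 and 3756 in KO Torin1, a log2 fold change of 0.60 ± 0.11 (adjusted p = 2.35e-05). Hnrnpab, which binds single-stranded RNA and DNA, went from 1315, 1349 and 1111 to 1945, 1873 and 1899 CPM, by 0.58 ± 0.10 (adjusted p = 3.59e-05). Hnrnpd (AUF1), a regulator of mRNAs with AU-rich elements, went from 497, 519 and 423 to 733, 726 and 688 CPM, by 0.56 ± 0.11 (adjusted p = 9.15e-05). In all 3 genes every Torin1 library lay above every DMSO library. Hnrnpk also rose, from 1309, 1398 and 1490.3 to 1805, 1581 and 1671 CPM, by 0.25 ± 0.10 (adjusted p = 0.0487), but this call was lost in 5 of 6 fits without a library, all but that without KO DMSO replicate 3, with values of 0.19 to 0.30. The other calls upward were Hnrnpul2 (0.51), Hnrnph2 (0.40), Hnrnpf (0.37), Hnrnpc (0.34) and Hnrnpr (0.33). Of these Hnrnpc lost its call without KO Torin1 replicate 1 (0.30) and Hnrnpr without KO DMSO replicate 1 (0.27), KO Torin1 replicate 2 (0.34) or KO Torin1 replicate 3 (0.28). Hnrnpu, at 1938, 2256 and 2182 and 2222, 2296 and 2371 CPM, had a log2 fold change of 0.09 ± 0.10 (adjusted p = 0.492), and was called at 0.34 with library size alone.

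The 3 members that fell were Ptbp1, Hnrnpdl and Hnrnpa0. Ptbp1 footprints were at 410.1, 453 and 465 CPM in KO DMSO and 277, 324 and 340.1 in KO Torin1, and all Torin1 libraries were lower. The log2 fold change was -0.52 ± 0.11 (adjusted p = 0.000312), and -0.27 (adjusted p = 0.0425) with library size alone. Its neural paralog Ptbp2 was at 111, 123 and 144 and 156, 148 and 126 CPM with 0.17 ± 0.12 (adjusted p = 0.292), which did not pass, and at 0.42 with library size alone it was called. Hnrnpdl, a paralog of Hnrnpd, fell from 356, 373 and 358 to 299, 248 and 291 CPM, by a log2 fold change of -0.40 ± 0.11 (adjusted p = 0.00438). So Hnrnpd and Hnrnpdl were called in opposite directions. The Hnrnpdl call was lost without KO Torin1 replicate 2 (-0.31) and with library size alone (-0.15). Hnrnpa0, a member of the A/B type that binds AU-rich elements, went from 285, 219 and 183 to 169, 189 and 177 CPM, by -0.38 ± 0.13 (adjusted p = 0.0190). Its DMSO libraries were spread widely and the lowest of them lay within the Torin1 range; the call was lost without KO DMSO replicate 1 (-0.20), without any of the Torin1 replicates (-0.43 to -0.35), and with library size alone (-0.13).

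**Figure D4:**
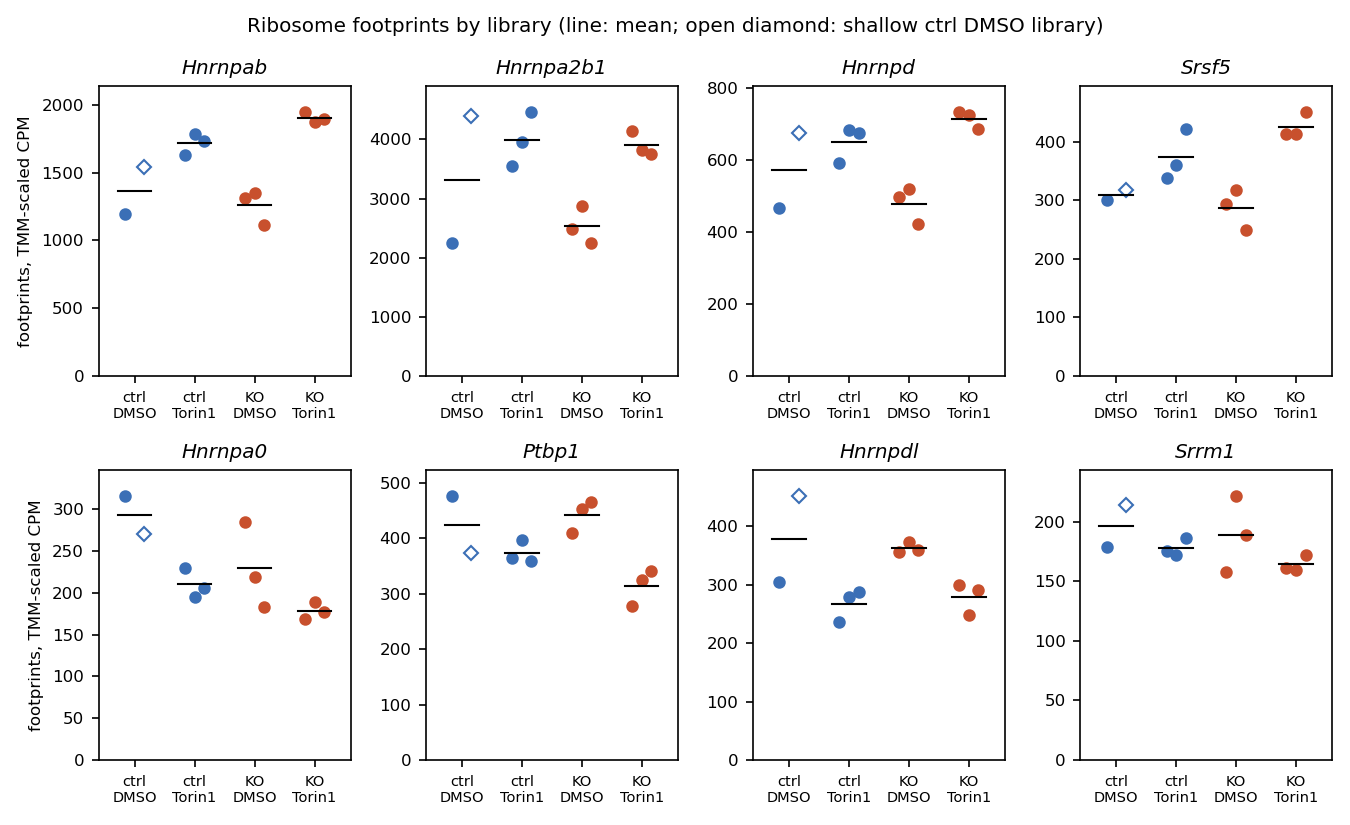
Ribosome footprints (TMM-scaled CPM) of 8 splicing factors in each library of the 4 conditions, with the mean as a line and the shallow ctrl DMSO library as an open diamond. For Hnrnpab, Hnrnpa2b1, Hnrnpd and Srsf5 the 3 KO Torin1 libraries lie above the 3 KO DMSO libraries, and for Ptbp1 and Hnrnpdl they lie below; Hnrnpa0 overlaps, and so does Srrm1, whose call was in TE.

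In TE of KO cells 14 of the 35 members passed the test, or 40%, against 28.4% of 10535 transcripts: 11 were higher and 3 lower, where 10.6% of all transcripts were higher and 17.8% lower. The median log2 change of TE was 0.29 over the members and -0.01 over all transcripts. With library size alone the median of all transcripts became 0.24 and the calls 23 higher and 1 lower, Hnrnpdl. The share of all transcripts called with that scaling is not given for TE either. Hnrnpab TE was 1.52, 1.37 and 1.20 in KO DMSO and 2.40, 2.27 and 2.31 in KO Torin1, a log2 change of 0.75 ± 0.12 (adjusted p = 3.61e-05). Hnrnpa2b1 TE was 2.07, 2.09 and 1.72 and 3.70, 3.11 and 3.08, at 0.72 ± 0.13 (adjusted p = 0.000148). Both pairs of groups were apart, as were those of Srsf5, with 0.69 ± 0.14 (adjusted p = 0.000600), and Hnrnpd, with 0.61 ± 0.13 (adjusted p = 0.000990). Smaller rises were called for Hnrnph3 (0.55), Hnrnpc (0.55), Srsf3 (0.54), Hnrnpul2 (0.53), Tra2a (0.51), Hnrnph2 (0.45) and Hnrnpf (0.44).

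TE fell for Hnrnpdl, Ptbp1 and Srrm1. For Hnrnpdl it was 1.95, 1.86 and 1.76 in KO DMSO and 1.45, 1.13 and 1.26 in KO Torin1, at -0.56 ± 0.13 (adjusted p = 0.00147), and for Ptbp1 0.679, 0.755 and 0.765 and 0.447, 0.554 and 0.578, at -0.51 ± 0.12 (adjusted p = 0.00252). Neither pair of groups overlapped. Srrm1, an SR-related coactivator, had a TE of 0.581, 0.850 and 0.640 and 0.508, 0.504 and 0.553, at -0.43 ± 0.14 (adjusted p = 0.0224). With its footprints at -0.23 and its mRNA at 0.20, neither of which passed, Srrm1 was called in the ratio alone, although its footprints passed (-0.34) without KO DMSO replicate 1. The TE call was lost without ribo-seq KO DMSO replicate 2 (-0.28) or KO Torin1 replicate 2 (-0.41), and with library size alone (-0.18). Hnrnph2 lost its TE call without RNA-seq KO DMSO replicate 3 (0.39), RNA-seq KO Torin1 replicate 1 (0.37) or ribo-seq KO Torin1 replicate 3 (0.42), and Hnrnph3 without replicate 1 of KO Torin1 in RNA-seq (0.47) or in ribo-seq (0.46). Hnrnpa0, lower in footprints, had a TE change of -0.06 ± 0.25 (adjusted p = 0.891), which turned to 0.19 with library size alone, and its mRNA was at 70.1, 73.5 and 50.5 CPM in DMSO and 56.8, 63.2 and 34.1 in Torin1. In all, 12 members were called in both footprints and TE, 4 in footprints alone (Hnrnpa0, Hnrnpk, Hnrnpr and Tra2b) and 2 in TE alone (Hnrnph3 and Srrm1).

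With both DMSO libraries kept, Torin1 gave few calls among these genes in ctrl cells. That number depended on the shallow ctrl DMSO library, so it does not show that the members failed to respond. In footprints 1 of 35 passed, or 2.86%, against 15.6% of 10693 transcripts, of which 9.93% were called lower. It was Hnrnpa0, at 315 and 271 CPM in the 2 DMSO libraries and 230.1, 195 and 206 in Torin1, with all Torin1 libraries lower, at -0.50 ± 0.15 (adjusted p = 0.0275). DESeq2 called none, and the edgeR call was lost without ctrl DMSO replicate 1 (-0.36), ctrl Torin1 replicate 2 (-0.44) or ctrl Torin1 replicate 3 (-0.47), and with library size alone (-0.28). Labels give each replicate number as a passage, and with the number as a block 4 members were called: Hnrnpa0 (-0.43) and Hnrnpdl (-0.50) lower, and Hnrnpc (0.40) and Hnrnpa2b1 (0.35) higher. With library size alone 8 were called, all higher, and the median of all transcripts was 0.23 instead of 0.02. The share of all transcripts called in these alternative fits is not given here, so their counts have no background beside them.

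The values in ctrl cells depended strongly on the shallow ctrl DMSO library. Without it Hnrnpa0 stood at -0.59 and Srsf9 at -0.41, and Hnrnpa2b1 at 0.83, Hnrnph2 at 0.55, Hnrnpul2 at 0.54 and Hnrnpab at 0.53. In that fit a single DMSO library stands for its condition and is assumed to vary like the others. Without ctrl DMSO replicate 1 instead, Hnrnpa3 stood at -0.64 and Hnrnpdl at -0.74. Hnrnpa2b1 shows the pattern: its ctrl footprints were at 2246 and 4398 CPM in DMSO replicates 1 and 3 and at 3557, 3956 and 4457 in Torin1. Replicate 1 lay below all Torin1 libraries and replicate 3 within them, and the change with both was 0.27 ± 0.20 (adjusted p = 0.398). Hnrnpd had the same order, at 468 and 675 and 592, 684 and 677 CPM. For Srsf5, at 301 and 318 and 338, 360.0 and 422 CPM, all Torin1 libraries were higher, at 0.28 ± 0.15 (adjusted p = 0.221), and it was called at 0.49 with library size alone. Ptbp1, at 476 and 373 and 365, 397 and 358 CPM, had -0.20 ± 0.15 (adjusted p = 0.391) and overlapped, and stood at 0.01 with library size alone.

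In TE 1 member was called in ctrl cells, 2.86% against 4.68% of 10432 transcripts, where 0.383% were called higher. Hnrnpc, which binds uridine tracts, had a TE of 1.14 and 1.62 in DMSO and 1.84, 2.07 and 2.18 in Torin1, all higher, at 0.64 ± 0.18 (adjusted p = 0.0456). DESeq2 called it too (0.66), but no member was called with the replicate block, where Hnrnpc stood at 0.63, and it lost its call in 7 of 11 fits without a library, those without replicate 1 of ctrl DMSO in either assay, any ctrl Torin1 replicate of RNA-seq, or ctrl Torin1 replicate 2 or 3 of ribo-seq (0.53 to 0.65). Without the shallow library Hnrnpa2b1 stood at 0.87, Hnrnpc at 0.75 and Hnrnpab at 0.71. The responses of ctrl and KO cells, which share no library, had the same sign for 27 of 35 members in footprints and 28 in TE, with Pearson's r of 0.749 and 0.755 across members. Over all transcripts the sign was the same for 79.9% in footprints and 72.8% in TE, and r was 0.791 and 0.685. Genes are not independent replicates, and these values are descriptions.

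At the mRNA level no member was called for Torin1 in either genotype by edgeR. In ctrl cells 2.73% of 10958 transcripts were called, and 4 members had an unadjusted p under 0.05, with none called by DESeq2. In KO cells 9.97% of 11004 transcripts were called, and 11 members had an unadjusted p under 0.05. The share of all transcripts at that looser threshold is not given, here or below. Counts of members at it have no background beside them. The member medians were -0.01 and -0.05, and the values ran from -0.30 to 0.26 in ctrl and from -0.35 to 0.21 in KO cells. Smallest in p were Srsf9 (-0.30, adjusted p = 0.136) and Srsf7 (-0.26, adjusted p = 0.178) in ctrl cells. Srsf7 mRNA was at 312, 306 and 272 CPM in ctrl DMSO and 237, 255 and 249.7 in ctrl Torin1, so that the groups were apart. Without RNA-seq ctrl DMSO replicate 3 these 2, with Hnrnpc and Srsf3, were called lower. In KO cells the smallest p were those of Hnrnpc (-0.20, adjusted p = 0.0672) and Srrm1 (0.20, adjusted p = 0.0679), and Srrm1 passed at 0.26 without RNA-seq KO DMSO replicate 3. DESeq2 called Hnrnpc (-0.20) and Srsf2 (-0.35) lower in KO cells. The replicate block called 3 lower, Hnrnpa0 (-0.35), Hnrnph3 (-0.29) and Srsf2 (-0.35). Srsf2 mRNA was at 137, 125 and 107 CPM in KO DMSO and 102, 106 and 80.6 in KO Torin1, and its groups did not overlap.

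The comparison of KO with ctrl cells asks what loss of eIF4E3 does to these genes. In DMSO no member was called in mRNA, footprints or TE, and edgeR called 0.0183% of 10924 transcripts in mRNA, 0.0279% of 10757 in footprints and none of 10475 in TE. An unadjusted p under 0.05 was seen for no member in mRNA, 3 in footprints and 1 in TE, and DESeq2 called none in any of these. No member was called without the shallow ctrl DMSO library either. The smallest p in footprints was that of Ptbp2, at 81.7 and 89.2 CPM in ctrl DMSO and 111, 123 and 144 in KO DMSO. All its KO libraries were higher, at 0.58 ± 0.17 (adjusted p = 0.501). Srsf10 followed at -0.33 and had the smallest p in TE (-0.59, adjusted p = 0.978), before Srsf4 (-0.41). Smallest in mRNA were Hnrnph2 (0.25) and Hnrnpul1 (0.17), both at an adjusted p of 0.683.

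Under Torin1 the genotypes differed in the footprints of 2 members, Hnrnpl and Ptbp2, 5.71% of 35 against 6.03% of 10792 transcripts, where 2.02% were higher and 4.01% lower. Hnrnpl, which binds CA repeats, was at 899, 912 and 945 CPM in ctrl Torin1 and 715, 752 and 765 in KO Torin1. All KO libraries were lower, at -0.31 ± 0.09 (adjusted p = 0.0405), and its mRNA had a log2 fold change of 0.00. Ptbp2 was at 92.6, 120.3 and 112 CPM in ctrl and 156, 148 and 126 in KO cells, all KO libraries being higher, at 0.39 ± 0.12 (adjusted p = 0.0486). Both calls lay close to the threshold. The Hnrnpl call was lost in 5 of 6 fits without a library, all but that without ctrl Torin1 replicate 1 (-0.33 to -0.28), and the Ptbp2 call in 5 of 6, all but that without KO Torin1 replicate 3 (0.30 to 0.48). DESeq2 called Hnrnpl alone, a spread shared over all 4 conditions left no call, and the replicate block called both and Srrm2 (0.31). Srrm2 footprints were at 268, 319 and 326 CPM in ctrl Torin1 and 314, 410.2 and 413 in KO Torin1, at 0.31 ± 0.11 (adjusted p = 0.0871), and passed at 0.43 without KO Torin1 replicate 1.

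**Figure D5:**
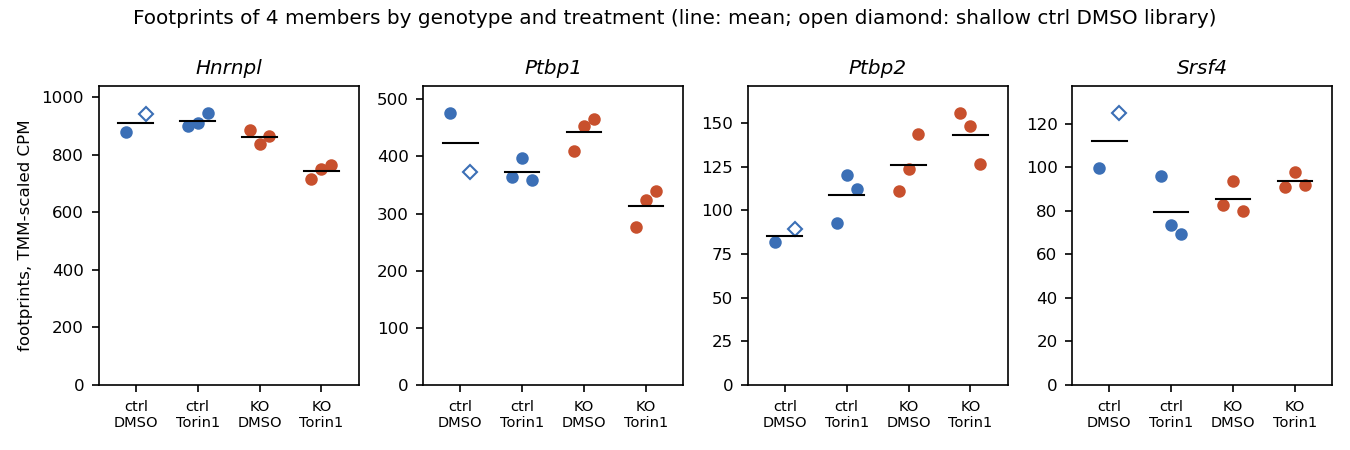
Ribosome footprints (TMM-scaled CPM) of Hnrnpl, Ptbp1, Ptbp2 and Srsf4 in each library of the 4 conditions, with the mean as a line and the shallow ctrl DMSO library as an open diamond. KO Torin1 libraries of Hnrnpl lie below the ctrl Torin1 libraries and those of Ptbp2 above; Ptbp1 and Srsf4 passed no test of genotype.

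In TE no member passed between genotypes under Torin1 by edgeR, where 2.85% of 10509 transcripts did. An unadjusted p under 0.05, a looser threshold without a share of all transcripts beside it, was seen for 6 members. DESeq2 called 3, Hnrnpab (0.25) and Hnrnpc (0.30) higher and Hnrnpl lower, and the replicate block called Hnrnpc (0.30) and Srrm2 (0.31) higher. By edgeR Hnrnpl was at -0.30 ± 0.09 (adjusted p = 0.0690) and Hnrnpc at 0.30 ± 0.10 (adjusted p = 0.0953), the latter called (0.37) without ribo-seq ctrl Torin1 replicate 3. Hnrnpc TE was 1.84, 2.07 and 2.18 in ctrl Torin1 and 2.60, 2.44 and 2.47 in KO Torin1, without overlap. In mRNA none passed, against 1.96% of 11007 transcripts; 4 members had an unadjusted p under 0.05, DESeq2 called none, and the block called 3 higher, Hnrnph2 (0.20), Srsf10 (0.19) and Tra2b (0.19). Tra2b mRNA was at 114, 110.5 and 101 CPM in ctrl Torin1 and 130.0, 122 and 118 in KO Torin1, and all KO libraries were higher (adjusted p = 0.120).

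Whether the Torin1 response itself differed between genotypes was tested by the interaction of genotype and treatment, and no member passed. Calls among all transcripts were 0 of 11073 in mRNA, 0.113% of 10662 in footprints and 0 of 10443 in TE. Members with an unadjusted p under 0.05 numbered none in mRNA, 3 in footprints and 1 in TE, DESeq2 called none, and none passed without the shallow ctrl DMSO library. So the 16 calls in KO and the 1 call in ctrl footprints are not shown to be different responses. Srsf4 had the smallest p in footprints and TE. Its footprints were at 99.5 and 125 CPM in ctrl DMSO, 96.2, 73.6 and 69.2 in ctrl Torin1, 82.6, 93.9 and 79.9 in KO DMSO and 91.2, 97.6 and 92.0 in KO Torin1. In ctrl cells all Torin1 libraries were lower, and in KO cells they overlapped with DMSO. The interaction was 0.58 ± 0.22 in footprints (adjusted p = 0.512) and 0.64 ± 0.23 in TE (adjusted p = 0.705). Next were Srsf3 in footprints (0.41, adjusted p = 0.588) and Hnrnpl in TE (-0.35, adjusted p = 0.855). Without ribo-seq ctrl DMSO replicate 1, Hnrnpa2b1 passed in footprints at 0.76, against 0.35 with all libraries and -0.21 without ctrl DMSO replicate 3.

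The rest of the splicing machinery gives a setting for these values, from 6 lists of other factors, as footprints for Torin1 in KO cells, where 40.6% of all transcripts were called, 22.1% lower and 18.5% higher. Core snRNP proteins had 8 of 22 lower and 4 higher, and the lowest were Snrpg (-0.94), Snrpf (-0.84) and Snrpd2 (-0.79). Branch point, 3′ splice site and SF3 factors had 1 of 15 lower and 3 higher, Sf3b6 (0.74), Sf3b1 (0.48) and Sf3a1 (0.38). Factors of the Prp19 complex and of catalysis had 2 of 17 lower and 8 higher, with Slu7 (0.88), a factor of the second catalytic step, Cdc5l (0.49) and Crnkl1 (0.53). Of the SR protein kinases, phosphatase and importer 10 of 12 were tested, and Ppp1ca (-1.04), a catalytic subunit of protein phosphatase 1, fell and Clk1 (0.59), a kinase of SR proteins, rose. Other splicing regulators had 2 of 35 tested lower and 17 higher, with Pcbp2 (-1.30), Rbm5 (0.83) and Qk (0.78) smallest in p. Exon junction complex and decay factors had 3 of 15 lower and 2 higher, with Smg1 (0.57), Upf2 (0.58) and Upf3a (-0.54). The shares called were 54.5, 26.7, 58.8, 20, 54.3 and 33.3% in this order, on both sides of that background. Median log2 fold changes were 0.02, 0.08, 0.32, 0.003, 0.29 and -0.01, against 0.02 over all transcripts. In ctrl footprints, with 15.6% of all transcripts called, the same lists had 2, 1, 0, 1, 1 and 0 lower and 2, 1, 1, 1, 4 and 1 higher. In mRNA of KO cells, with 9.97% called, they had 1, 0, 0, 0, 0 and 1 lower and 1, 0, 1, 0, 2 and 1 higher, and in ctrl mRNA none was called.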

How the data were processed

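The deposited files hold raw counts for each coding sequence. Per the study's methods, the authors trimmed footprints with cutadapt and kept those of 25 to 35 bases, mapped all reads with HISAT2 to mm10, kept primary alignments, removed reads on rRNA, tRNA and pseudogenes as RepeatMasker defines them, remapped with bowtie2 to canonical Ensembl transcripts, and counted RNA-seq reads or riboWaltz P-sites on each CDS. Tool versions are not given in the sources used here. The tables also hold the authors' edgeR fold changes and p-values, and 2 further tables hold TE tests by RiboDiff; none of these were used. For KO against ctrl in DMSO, 4 RNA-seq columns carry doubled header names that give the group but not the replicate. Ctrl DMSO replicate 2 of ribo-seq was not analysed here, and neither was 1 A/B-type hnRNP gene.

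Counts were tested pair by pair with edgeR 4.0.16 (TMM, quasi-likelihood F-test, R 4.3.3) after keeping transcripts whose CPM exceeded 1 in every library of 1 or more conditions, with Benjamini-Hochberg adjustment over all transcripts and a threshold of 0.05. TE was tested as the interaction of assay and condition, and the difference of responses as the interaction of genotype and treatment. The scripts were checked on simulated data. Levels are TMM-scaled CPM over the 12176 transcripts of RNA-seq and the 10568 of ribo-seq listed in all 4 tables of the assay. The 5′ ends were read from GENCODE M21 and RefSeq on GRCm38, and 28-base words were searched on 21 chromosomes. Alternatives were DESeq2 1.42.0, library size without TMM, no filter on low counts, each library left out in turn, the replicate number as a block and, chosen after seeing the data, a spread shared over all 4 conditions. The share of all transcripts called is given only for the main edgeR fits, so counts of calls in the alternatives have no background beside them.

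The members and the 6 other lists were chosen with earlier results of these data known. Members named with values are a fixed set of 13, the 4 largest increases and 4 largest decreases among calls of a comparison (with none called, the 2 smallest p), the highest and lowest levels (4 per kb, 3 in TE), and up to 3 calls of each other list; all other called members are named by value only, and Srsf6, Srsf11, Hnrnpll and Hnrnpm by membership. Replicates are separate passages per the labels, and same-numbered libraries were taken as pairs for the block. The correlation of their deviations from the condition means ran from 0.0276 to 0.692 in RNA-seq and from -0.0379 to 0.143 in ribo-seq. Libraries of different number had -0.544 to 0.388 and -0.143 to 0.122. For Torin1 in RNA-seq the same-numbered pairs lay above all others, at 0.147 to 0.218 against -0.144 to -0.0414 in KO cells. In ctrl cells they were at 0.0569 to 0.206 against -0.229 to 0.0491. For Torin1 in ribo-seq they were apart in ctrl cells, where the 2 DMSO deviations mirror each other, and overlapped in KO cells. KO against ctrl overlapped in both assays. The main fits leave this pairing out. Passages of 1 line are not independent lines, and p-values measure the spread between passages.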

Additional observations from a re-analysis of the deposited data

How the results depend on the processing

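Of 68 results on named members, 906 values were recomputed under the alternatives: 807 kept direction and side of the threshold, 56 lost a call, 28 gained one, and 15 changed sign, none of them of a called result. With library size without TMM, Ptbp1 in ctrl footprints turned to 0.014, and in KO cells Srrm1 and Srsf2 footprints turned to 0.022 and 0.18 and Hnrnpa0 TE to 0.19. Without a replicate, values that changed sign ran from -0.29 to 0.14 for Hnrnpa0 TE and from -0.14 to 0.033 for Srsf2 footprints in KO cells, from -0.35 to 0.0078 for Ptbp1 and from -0.13 to 0.83 for Hnrnpa2b1 in ctrl footprints, from -0.21 to 0.76 for Hnrnpa2b1 in the footprint interaction, and from -0.020 to 0.023 for Hnrnpl mRNA, KO against ctrl in Torin1 (-0.00011 with a shared spread). Without a replicate, the number of members called for Torin1 ran from 0 to 4 in ctrl mRNA, 0 to 2 in KO mRNA, 0 to 12 in ctrl footprints, 11 to 18 in KO footprints, 0 to 3 in ctrl TE and 12 to 18 in KO TE. For KO against ctrl in Torin1 it ran from 0 to 1 in footprints and in TE, and for the interaction from 0 to 1 in footprints. DESeq2 called 2 in KO mRNA, 0 in ctrl footprints, and for KO against ctrl in Torin1 1 in footprints and 3 in TE. Library size without TMM gave 8 in ctrl footprints, 29 in KO footprints, 2 in ctrl TE, 24 in KO TE and 1 in TE for KO against ctrl in Torin1. With the replicate block, 3 were called in KO mRNA, 3 in mRNA for KO against ctrl in Torin1, 4 in ctrl footprints, 0 in ctrl TE and 2 in TE for KO against ctrl in Torin1. A spread shared over all 4 conditions gave 3 in ctrl mRNA (Srsf7 and Srsf9 lower, Srrm1 higher), 3 in ctrl footprints, 3 in ctrl TE and 0 in footprints for KO against ctrl in Torin1. The other 169 counts and levels stayed within 1.5 times the reported value or within the spread between replicates. The cause of these shifts was not tested. The share of all transcripts called in the alternative fits is not given here, so their counts have no background beside them. The shallowest ribo-seq library, with 669010 counts and a lowest member count of 55, is 1 of the 2 libraries of ctrl DMSO, and both its depth and that number limit the precision in ctrl footprints.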
